A study of Mus musculus with 2 samples.

Results

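The neighbourhoods of olfactory receptor (Olfr) genes were examined in the ATAC-seq peaks of mouse embryonic stem cells (mESCs). They were defined from the annotation alone: the bodies of the 1128 protein-coding genes named Olfr on chromosomes 1 to 19, extended by 10 kb on each side and merged where they overlapped, gave 424 regions. These regions covered 22.4 Mb, or 0.936% of the sequenced bases of these chromosomes, and held 773 of the 113777 autosomal peaks, where a peak was assigned by its summit. The series as a whole listed 116782 peaks. Sequence on either side of each region, as wide as the region and outside every other region, served as the comparison and came to 13.7 Mb with 703 peaks.

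The cells were the line EHMT2-dTAG-mcherry, ESCs of a BL6/129 hybrid background in which endogenous EHMT2 is fused to a degron tag, grown in FBS/LIF medium. Both samples received only the vehicle DMSO for 24 h, so EHMT2, a histone H3 lysine 9 methyltransferase, was not depleted in any cell analysed here. Each of the 2 samples came from a separate clone and used 50000 cells, and the deposited peaks were called on both together. Values per clone therefore cannot be given, and intervals below are 95% intervals that cover counting error only. Of 6 genes that mark mESCs, 5 had a peak within 500 bp of the start (Pou5f1, Sox2, Nanog, Zfp42 and Klf4, with 17 to 151 fragments at the summit), and Esrrb had none.

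Olfactory receptors are G protein-coupled receptors, and their genes form one of the largest families of the mouse genome, arranged in clusters on many chromosomes. In the nose, each mature sensory neuron expresses a single receptor allele, while the remaining genes of the family are packed in heterochromatin marked by H3K9 methylation. The coding sequence usually lies in a single exon, preceded by short non-coding exons, and the transcription factors Lhx2 and Ebf bind near many of the promoters and at the distal enhancers of the clusters. Embryonic stem cells are not olfactory cells, so the peaks described here give the accessibility of these genes outside the tissue in which they act.

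The sequences below are those on which the results turn, each given 5′ to 3′ as a peak summit with 100 bases on each side in GRCm38 (mm10), with CpG dinucleotides in capitals. The first 3 are the Olfr gene starts with the most fragments, on the strand of the gene. They lie at chr7:104647034-104647234, minus strand, with 11 CpGs, at chr2:86020456-86020656, plus strand, with 8, and at chr7:102695572-102695772, plus strand, with 0.
Olfr658 start: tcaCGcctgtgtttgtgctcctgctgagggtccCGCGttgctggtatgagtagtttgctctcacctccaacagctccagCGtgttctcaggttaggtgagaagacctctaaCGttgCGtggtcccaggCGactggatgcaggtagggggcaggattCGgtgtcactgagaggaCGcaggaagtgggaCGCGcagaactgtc
Olfr1033 start: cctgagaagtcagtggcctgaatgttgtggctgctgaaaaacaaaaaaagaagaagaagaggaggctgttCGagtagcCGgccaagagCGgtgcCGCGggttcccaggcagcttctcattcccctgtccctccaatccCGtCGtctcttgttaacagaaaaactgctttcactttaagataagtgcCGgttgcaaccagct
Olfr557 start: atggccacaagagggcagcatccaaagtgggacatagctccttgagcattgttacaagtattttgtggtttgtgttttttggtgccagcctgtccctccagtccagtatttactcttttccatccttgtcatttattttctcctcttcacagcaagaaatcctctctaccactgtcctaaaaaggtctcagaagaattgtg

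The next sequences come from peaks inside Olfr coding sequence, on the strand of the gene, at chr17:37197242-37197442 and chr7:102477364-102477564, both minus strand, with 25 and 6 CpGs. They are shown because most coding-sequence peaks were shallow and these were among the 3 that reached 20 fragments.
Olfr94 coding sequence: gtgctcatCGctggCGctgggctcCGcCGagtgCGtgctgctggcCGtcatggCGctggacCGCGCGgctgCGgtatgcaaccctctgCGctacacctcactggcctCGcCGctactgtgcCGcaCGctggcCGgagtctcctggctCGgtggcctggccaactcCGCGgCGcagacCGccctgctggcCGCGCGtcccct
Olfr543 coding sequence: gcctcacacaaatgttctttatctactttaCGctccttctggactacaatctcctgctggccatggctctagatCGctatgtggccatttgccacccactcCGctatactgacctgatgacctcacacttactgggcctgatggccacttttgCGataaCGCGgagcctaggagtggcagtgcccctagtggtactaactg

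The last set holds the strongest peak of all regions, at the start of the neighbouring gene Trim68, and 2 strong peaks in sequence that was entirely repeat-masked, all on the plus strand. They lie at chr7:102687072-102687272 with 16 CpGs, at chr11:49023250-49023450 with 10 and at chr14:50050026-50050226 with 1.
Trim68 start: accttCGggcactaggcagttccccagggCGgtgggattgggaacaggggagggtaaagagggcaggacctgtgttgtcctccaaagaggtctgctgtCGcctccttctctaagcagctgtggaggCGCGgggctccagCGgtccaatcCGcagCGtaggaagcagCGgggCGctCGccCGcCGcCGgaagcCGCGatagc
Olfr56 intron, repeat-masked: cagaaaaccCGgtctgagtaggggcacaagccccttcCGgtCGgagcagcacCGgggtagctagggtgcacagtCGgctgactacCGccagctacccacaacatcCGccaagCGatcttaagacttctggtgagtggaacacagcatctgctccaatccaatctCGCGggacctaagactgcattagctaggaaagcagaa
near Olfr725, repeat-masked: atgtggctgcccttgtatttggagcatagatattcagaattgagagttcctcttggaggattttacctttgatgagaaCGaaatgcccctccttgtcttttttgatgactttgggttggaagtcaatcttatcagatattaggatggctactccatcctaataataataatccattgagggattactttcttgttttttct

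Peaks were sparser in the Olfr regions than beside them. The regions held 34.5 summits per Mb (95% Poisson interval 32.1 to 37.0), the flanks 51.5 (47.7 to 55.4) and chromosomes 1 to 19 together 47.5. The ratio of regions to flanks was 0.670 (exact interval 0.604 to 0.743), and that of regions to the rest of the autosomes 0.724 (0.674 to 0.778). Peaks covered 1.99% of the bases of the regions, 3.58% of the flanks and 3.15% of the autosomes. Against its own flank, among the 226 regions whose flank was at least as wide as the region, peak density was lower in 130 regions, higher in 66 and equal in 30, of which 25 had no peak on either side. The medians were 28.2 summits per Mb in these regions and 38.1 in their flanks.

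The region peaks were also shallow. The number of fragments over a summit, recovered from the fold enrichment and p-value of each peak, had a median of 7 in the regions, 10 in the flanks and 9 on the autosomes. The smallest number that gave a peak, 6 fragments, accounted for 295 region peaks, or 38.2%, against 21.6% in the flanks and 25% on the autosomes. At least 20 fragments were found at 108 region peaks, or 14%, against 28% in the flanks. Median fold enrichment, the fragment pileup over the local background with 1 added to both, was 3.70 in the regions and 4.16 in the flanks. A low number of fragments in bulk cells can stand for an opening in few cells or a weak opening in many, and these cannot be told apart. The plot of peak depth shows the curve of the coding-sequence peaks falling furthest to the left.

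**Figure D1:**
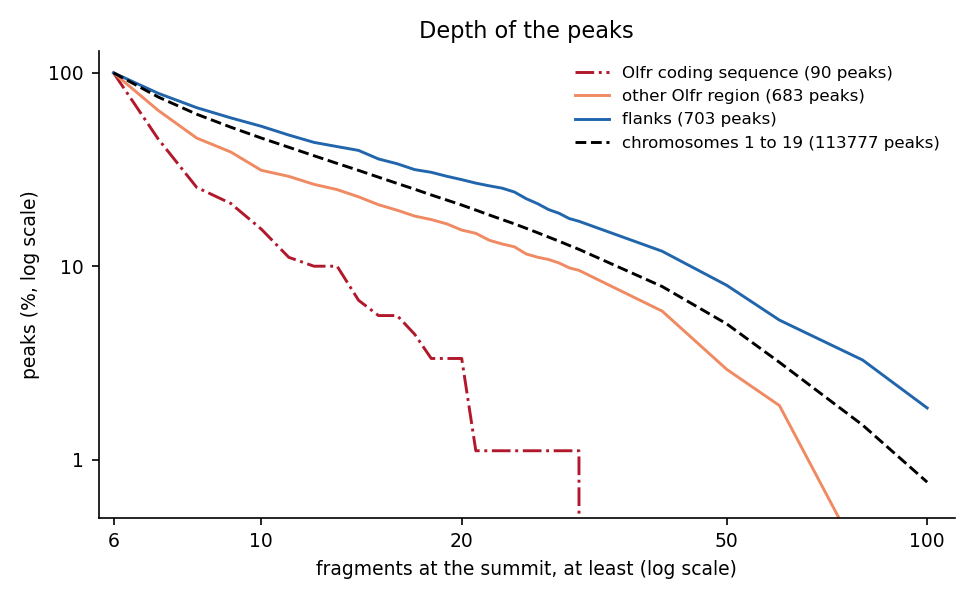
Share of peaks (%, log scale) with at least a given number of fragments at the summit (log scale), for 90 peaks in Olfr coding sequence, 683 other peaks of the Olfr regions, 703 peaks of the flanks and 113777 peaks of chromosomes 1 to 19. Of the coding-sequence peaks, 3 reached 20 fragments, and the flank curve lies above the other curves.

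The regions differed from their surroundings in sequence as well. Their GC content was 38.6%, against 41.2% in the flanks and 41.9% on the autosomes, and 44% of their bases were repeat-masked, against 46.9% and 33.5%. The summit base was repeat-masked in 371 region peaks, or 48% (exact binomial interval 44.4 to 51.6), in 36.4% of the flank peaks and in 26.7% of all autosomal peaks. Only 18 region peaks, 2.33%, lay within 1 kb of the start of another protein-coding gene, against 17.5% of flank peaks and 11.1% of autosomal peaks.

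Peak density changed with the distance from the receptor genes. In the first 1 kb beside an Olfr gene it was 28.7 summits per Mb (22.0 to 36.9), and from 5 to 10 kb it was 39.3 (34.3 to 44.8). From 10 to 20 kb it was 47.2 (41.6 to 53.3), close to the autosomal density, and from 100 to 200 kb it reached 65.8 (61.2 to 70.8). GC content rose alongside, from 37.2% in the first 1 kb to 43.5% from 100 to 200 kb, and repeat-masked bases were most frequent from 5 to 10 kb, at 60.7%.

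Inside the genes the coding sequence stood apart. It held 90 summits in 1.06 Mb, or 84.6 per Mb (68.1 to 104), whereas the introns held 18.2 (14.2 to 23.0) and the other exon sequence 24.9 (19.2 to 31.9). The ratio of coding sequence to introns was 4.64 (3.36 to 6.43) and that to the region outside the genes 2.3 (1.82 to 2.88). Most of these peaks were shallow, since 49 of the 90 had 6 fragments. With a −log10 q-value of at least 10, coding sequence held 4 peaks, or 3.76 per Mb. Introns then held 2.05 per Mb and the region outside the genes 7.45, so coding sequence no longer exceeded the latter. Coding sequence was also the part richest in GC, with 44.7%, against 36.2% in introns and 36.7% in the other exon sequence, and the part with the fewest repeat-masked bases, 6.08%. The plot of density by part of the gene and distance shows the single tall bar of coding sequence beside the low bars of the introns and the nearest kilobase.

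**Figure D2:**
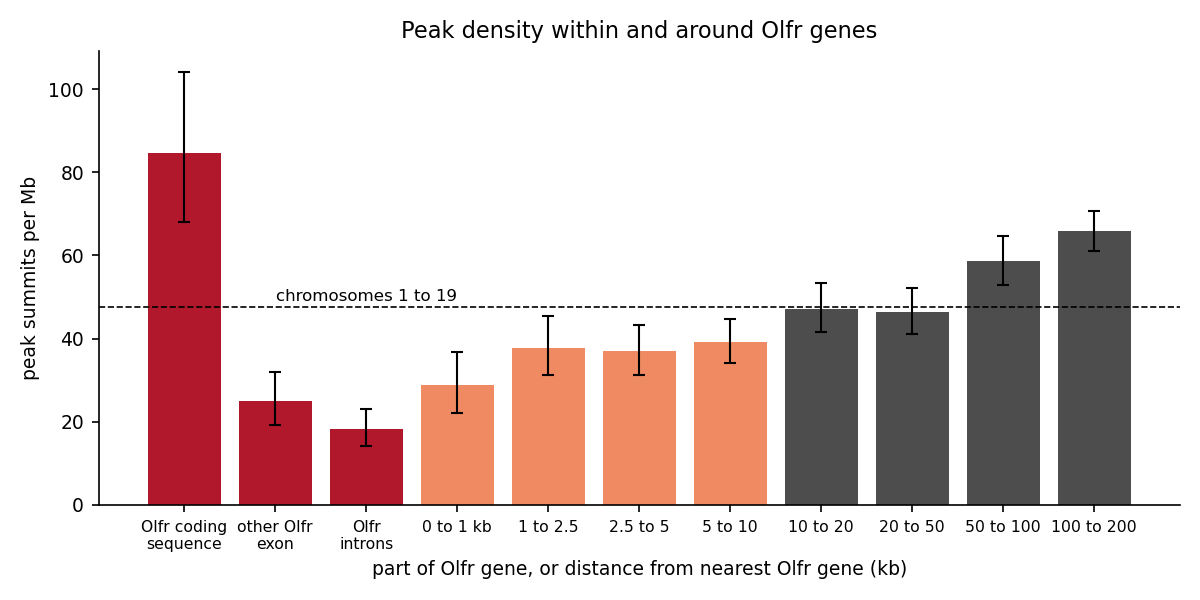
Peak summits per Mb in 3 parts of Olfr genes (red), at distances up to 10 kb inside the regions (orange) and at 10 to 200 kb outside them (grey); bars give the density, error bars the 95% Poisson interval and the dashed line the density of chromosomes 1 to 19, 47.5. Density is 84.6 in coding sequence, 18.2 in introns and 65.8 at 100 to 200 kb.

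Since GC content and peak density rose together, densities were set side by side in tiles of equal GC content. Tiles of 10 kb centred in the Olfr regions held 35.1 summits per Mb and all other autosomal tiles 47.6, a ratio of 0.737. Of the Olfr tiles, 72.2% had a GC content below 40%, against 37.2% of the others. With the other tiles weighted to the GC content of the Olfr tiles, their density was 33.0 and the ratio 1.07 (0.992 to 1.14). Counted over peaks of every depth, the regions thus showed no deficit against other autosomal sequence of the same GC content. The weighting was not repeated for stronger peaks, which were less frequent in the regions. A −log10 q-value of at least 10 was reached by 16.8% of region peaks and 21.8% of autosomal peaks, and the unweighted ratio to the flanks was then 0.404. From 34 to 36% GC, the Olfr tiles held 32.7 summits per Mb (26.9 to 39.5) and the others 20.7 (19.9 to 21.5). From 44 to 46% GC, the order was the other way round, with 41.0 (28.1 to 57.9) against 60.7 (59.8 to 61.6). In the other 6 bins, including the direct neighbours of both, the interval of the Olfr tiles included the value of the other tiles. From 32 to 34% these were 23.3 (14.2 to 35.9) and 15.9, and from 46 to 48% they were 64.0 (36.6 to 104) and 70.1.

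The same comparison was made for the coding sequence and introns, more than 1 kb from any protein-coding gene start. Olfr coding sequence held 87.0 summits per Mb, and 1 kb tiles elsewhere, weighted to its GC content, held 58.6, a ratio of 1.49 (1.18 to 1.84). For tiles within Olfr introns the values were 22 and 21 summits per Mb, a ratio of 1.05 (0.785 to 1.36). Both ratios were matched for GC content only, not for repeat masking, and used peaks of every depth. Of the 83 Olfr coding-sequence summits counted here, 46 had 6 fragments. Coding sequence of other genes, also more than 1 kb from starts and with a GC content of 51.5%, held 102, and the ratio of Olfr coding sequence to it was 0.853 (0.677 to 1.06). The Olfr peaks were shallower, with a median of 6 fragments against 10. With a −log10 q-value of at least 10, Olfr coding sequence held 3.15 summits per Mb, on 3 peaks, and that of other genes 15.7, on 479. The pheromone receptor families Vmn1r and Vmn2r are, like the olfactory receptors, large and clustered. Their coding sequence, here including that near gene starts, held 10.4 (1.25 to 37.4) and 15.9 (5.17 to 37.1) summits per Mb, on 2 and 5 summits. All Olfr coding sequence held 84.6 on this count, and that of the trace amine-associated receptors 63.9 (1.62 to 356), on 1 summit. GC content was 41.4% in Vmn1r and 40.4% in Vmn2r coding sequence, against 44.7% in all Olfr coding sequence, and was not matched. Olfr coding sequence with 40 to 42% GC, more than 1 kb from starts, held 50.1 summits per Mb (24.0 to 92.1).

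**Figure D3:**
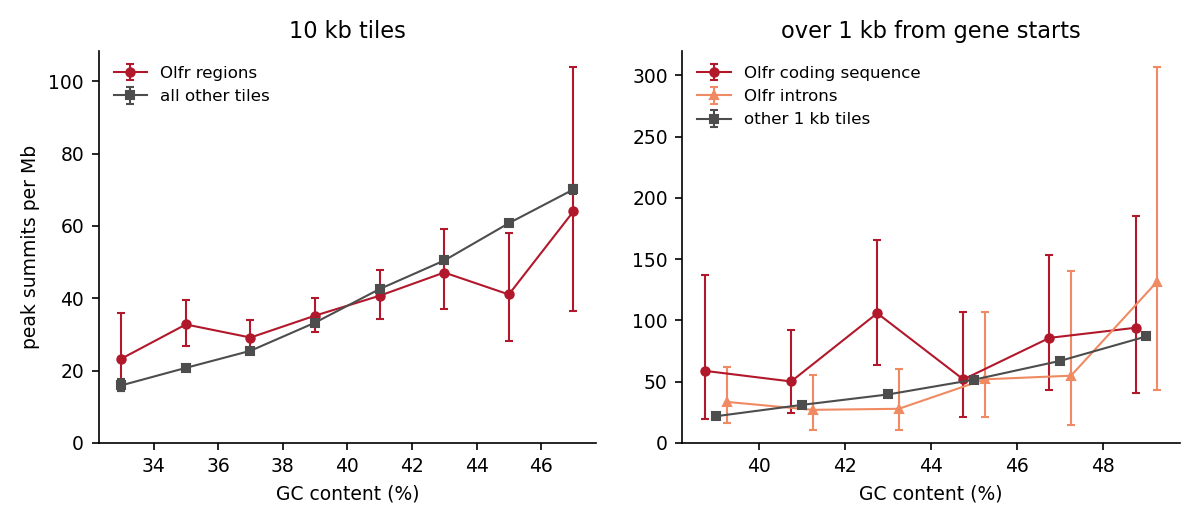
Peak summits per Mb against GC content (%) in 2% bins, with 95% Poisson intervals: left, 10 kb tiles of Olfr regions and all other autosomal tiles; right, Olfr coding sequence, 1 kb tiles of Olfr introns and other 1 kb tiles, all over 1 kb from protein-coding gene starts. The Olfr tiles lie above the others at 34 to 36% (32.7 against 20.7) and below them at 44 to 46% (41.0 against 60.7), and in the other 6 bins their interval includes the value of the others.

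Very few Olfr gene starts had a peak. A summit lay within 500 bp of the annotated start in 22 of 1128 genes, or 1.95% (1.23 to 2.94), whereas 58.5% of all protein-coding genes had one. The median distance from an Olfr start to the nearest summit was 10280.5 bp, against 232 bp for the other genes. The start profile of the Olfr genes had no rise at the start but was low there. The 1 kb on either side held 1.77 and 2.13 summits per 100 genes, and 1.60 were found from 1 to 2 kb downstream. All other 1 kb bins within 10 kb of the start held more, from 3.10 to 4.43, with 3.55 from 2 to 1 kb upstream. For the other genes, the 1 kb on either side of the start held 31.4 and 39.2. Extending the search to the whole gene and 10 kb on each side, 660 Olfr genes, or 58.5% (55.6 to 61.4), had a summit, against 89.8% of all protein-coding genes. This search window grows with the length of the gene, and gene length was not matched.

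**Figure D4:**
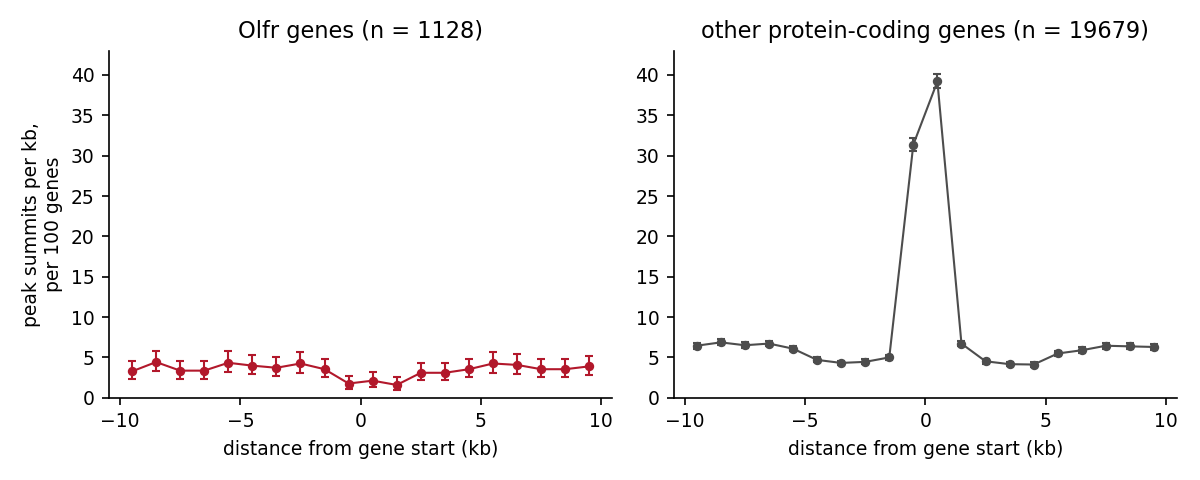
Peak summits per kb and per 100 genes against the distance from the gene start (kb; negative values upstream), for 1128 Olfr genes and 19679 other protein-coding genes, with 95% Poisson intervals. The 2 bins beside the start hold 1.77 and 2.13 for Olfr genes and 31.4 and 39.2 for the others.

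Start sequence of Olfr genes is poor in CpG, with a median observed-to-expected ratio of 0.106 against 0.599 for the other genes, so the share with a start peak was also compared within classes of this ratio. Below 0.1, it was 1.75% of 514 Olfr genes (0.804 to 3.30) and 4.46% of 1165 other genes (3.35 to 5.81). From 0.1 to 0.2 it was 1.82% of 494 (0.836 to 3.43) and 8.63% of 2526 (7.56 to 9.79), and from 0.2 to 0.3 it was 0.962% of 104 (0.0243 to 5.24) and 18.8% of 1933 (17.1 to 20.6). The Olfr share was the lower one in each of these 3 classes, and the intervals did not overlap. The classes above held few Olfr genes. From 0.3 to 0.4, the share was 16.7% of 12 Olfr genes (2.09 to 48.4) and 42.2% of 1385 other genes (39.6 to 44.9), with overlapping intervals. From 0.4 upwards, 1 of 4 Olfr genes and 86.3% of 12670 other genes had a start peak. Of the related receptor families, Vmn1r had a start peak in 4 of 208 genes, or 1.92%, Vmn2r in 0 of 121, which allows up to 3.0%, and the trace amine-associated receptors (Taar) in 1 of 15.

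The strongest start peak by far belonged to Olfr658, with 41 fragments, a 12.0 times enrichment over background and 32.1 for −log10 q. It spanned chromosome 7 from 104646734 to 104647582, and its summit lay 171 bp downstream of the start, within the gene. Its start region had an observed-to-expected CpG ratio of 0.409, and 4 Olfr genes in all had one above 0.4. Olfr1033 followed with 18 fragments and Olfr557 with 13, their summits 77 and 238 bp upstream. The Olfr1033 summit sequence was 84.6% repeat-masked, that of Olfr658 not at all, and that of Olfr557 held no CpG. Olfr464 had 10 fragments, and Olfr156, Olfr550, Olfr689 and Olfr703 had 7 each. The remaining 14 genes, among them Olfr1138, Olfr1216 and Olfr6, had 6 fragments, the lowest number that was called. Thus a single Olfr start reached 20 fragments, whereas the median over all start peaks of protein-coding genes was 32.

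Start peaks were unevenly spread over chromosomes. On chromosome 7 they marked 12 of 244 Olfr genes, or 4.92%, and on all other chromosomes 10 of 884, or 1.13%. The stretch of chromosome 7 from 102466579 to 105379355, with 129 Olfr genes from Olfr543 to Olfr692, accounted for 8 of these, or 6.20% (2.72 to 11.9), and the rest of chromosome 7 for 4 of 115, or 3.48% (0.956 to 8.67). Genes of this stretch with a start peak included Olfr557, Olfr558, Olfr550, Olfr548-ps1, Olfr654, Olfr658, Olfr675 and Olfr689. Peak density was 44.1 summits per Mb there (35.5 to 54.2), 46.7 in the other regions of chromosome 7 (38.2 to 56.5) and 31.9 in the regions of other chromosomes (29.3 to 34.6), and GC content was 38.9%, 39.2% and 38.4%.

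Within their coding sequence, 91 Olfr genes had a summit, or 8.07% (6.54 to 9.81), against 19.2% of all protein-coding genes, without matching for coding length. The leading genes were Olfr94 with 35 fragments and a fold enrichment of 9.28, Olfr763 and Olfr543 with 20 each, Olfr545 with 17, Olfr9 with 16 and Olfr544 with 14. Several of these are direct neighbours: Olfr543, Olfr544 and Olfr545 lie side by side on chromosome 7, and Olfr9 and Olfr763 near each other on chromosome 10. Of the 91 genes, 50 had only 6 fragments. Olfr290 is annotated as 2 of the 91, which share 1 summit, so there were 90 separate summits. Counts per gene and per stretch include that summit for both. The summits lay mostly in the interior of the coding sequence, with 7, 33, 22, 21 and 8 in 5 stretches of equal length from 5′ to 3′, at a median of 417 bases into a median length of 939. GC content of these stretches was 45.1%, 45.3%, 45.9%, 45.0% and 42.2%. When the genes were ranked by coding GC content, 3.90% of the 282 with the lowest and 12.8% of the 282 with the highest content had a summit. The rise was not steady, with 8.87% in the second and 6.74% in the third group of 282. On chromosome 7 the share was 12.3%, on chromosome 2, which holds the most Olfr genes, 6.46%, and on the other chromosomes 7.12%.

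Receptor genes are close copies of each other, and reads that match several places equally well were placed by the authors at one of them. The 100 bases on each side of every coding-sequence summit were therefore searched in the genome. Of the 90 windows, 44 had no other match that was 90% or more identical along 50% or more of the window, and the closest match of each of the other 46 lay in another Olfr gene. For 7 windows a match of at least 99% identity over 90% of the length was found. The windows of Olfr94 and Olfr543 had no such copy. The window at the Olfr763 summit, in contrast, recurred without a difference in Olfr9, and the windows of Olfr544 and Olfr545 were each other's closest copy. The latter are shown over the first 194 bases of the coding sequence, where 3 bases, in capitals, differ between them. These are chr7:102484925-102485118 and chr7:102494580-102494773, minus strand.
Olfr544 coding sequence: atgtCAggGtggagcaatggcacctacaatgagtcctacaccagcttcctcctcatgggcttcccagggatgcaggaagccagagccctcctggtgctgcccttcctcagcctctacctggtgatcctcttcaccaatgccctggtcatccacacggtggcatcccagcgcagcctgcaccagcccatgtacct
Olfr545 coding sequence: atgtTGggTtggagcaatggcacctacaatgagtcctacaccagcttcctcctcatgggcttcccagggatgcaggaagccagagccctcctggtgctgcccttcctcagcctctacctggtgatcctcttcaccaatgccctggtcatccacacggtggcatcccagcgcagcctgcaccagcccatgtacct
Fragments from stretches without a difference could be placed in either gene of such a pair, so the fragment numbers of both pairs are uncertain. Of the 22 start windows, 17 had no copy, Olfr658 had 1 at 91.6% identity and Olfr1033 had 8.

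How often a region had a peak followed its number of genes. Of the 424 regions, 137 had none, or 32.3% (27.9 to 37.0). These were 97 of the 193 regions with a single Olfr gene, 38 of the 174 with 2 to 4 genes and 2 of the 57 with at least 5. Density was 28.5, 36.2 and 36.3 summits per Mb in these classes, and their median widths were 26.1, 52.3 and 118 kb.

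The largest regions differed widely. The region from Olfr1039 to Olfr1058 on chromosome 2, from 86117995 to 86398561, held 19 Olfr genes, the most of any, and 14 peaks, 49.9 per Mb (27.3 to 83.7). From Olfr605 to Olfr620 on chromosome 7, 15 genes came with 5 peaks, 26.0 per Mb (8.45 to 60.7), and from Olfr796 to Olfr811 on chromosome 10, 15 genes came with 13 peaks, 59.4 per Mb (31.6 to 102). The region from Olfr699 to Olfr2 on chromosome 7, also with 15 genes, had 58.8 per Mb. The regions from Olfr665, Olfr1012 and Olfr1099, with 14, 13 and 12 genes, had 34.1, 32 and 32.2 per Mb, and the one from Olfr1306 to Olfr1318, with 13 genes, had 74.7. The region from Olfr566 to Olfr578 also had 12 genes, with 45.5 per Mb, and was ranked after that from Olfr1099 because it is narrower. The intervals of the 8 leading regions overlapped.

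Among the 57 regions with at least 5 genes, the densest ran from Olfr506 to Olfr510 on chromosome 7, with 8 peaks or 101 per Mb (43.5 to 198). It was followed by the regions from Olfr557 to Olfr561 with 79.2, which includes Trim68, from Olfr1306 to Olfr1318 with 74.7, from Olfr9 to Olfr770 with 70.8 and from Olfr547 to Olfr553 with 67.7, which includes Trim21. At the other end, the 7 genes from Olfr201 to Olfr209 on chromosome 16 and the 6 from Olfr330 to Olfr324 on chromosome 11 had no peak in 118 and 93.6 kb, which allows up to 31.3 and 39.4 per Mb. The 8 genes from Olfr322 to Olfr314 on chromosome 11, the 7 from Olfr1260 to Olfr140 on chromosome 2 and the 5 from Olfr1378 to Olfr1375 on chromosome 11 had 1 peak each, of 22, 6 and 30 fragments, or 6.67, 9.15 and 9.75 per Mb. GC content ran from 37.8% to 41.6% in the 5 densest regions and from 36.8%, in the region from Olfr201, to 43.9% in the 5 sparsest, so that the ranges overlapped.

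By chromosome, the regions fell below their flanks wherever they covered at least 1 Mb. This was the case on 7 chromosomes, with ratios from 0.295 on chromosome 19 to 0.933 on chromosome 10. On chromosomes 2 and 10, however, the interval of the regions included the density of the flanks, 38.2 and 64.9 per Mb. Density in the regions was lowest on chromosome 19, 12.0 per Mb (6.87 to 19.5), and 20.3 (14.1 to 28.2) on chromosome 11. It was highest on chromosome 10, 60.5 (47.9 to 75.4), the single one of the 7 where the regions exceeded the chromosome, which had 52.0. Chromosome 2 had 35.6 (30.8 to 40.9) and chromosome 7 45.5 (39.3 to 52.3), each on 196 peaks, and these intervals overlapped slightly.

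**Figure D5:**
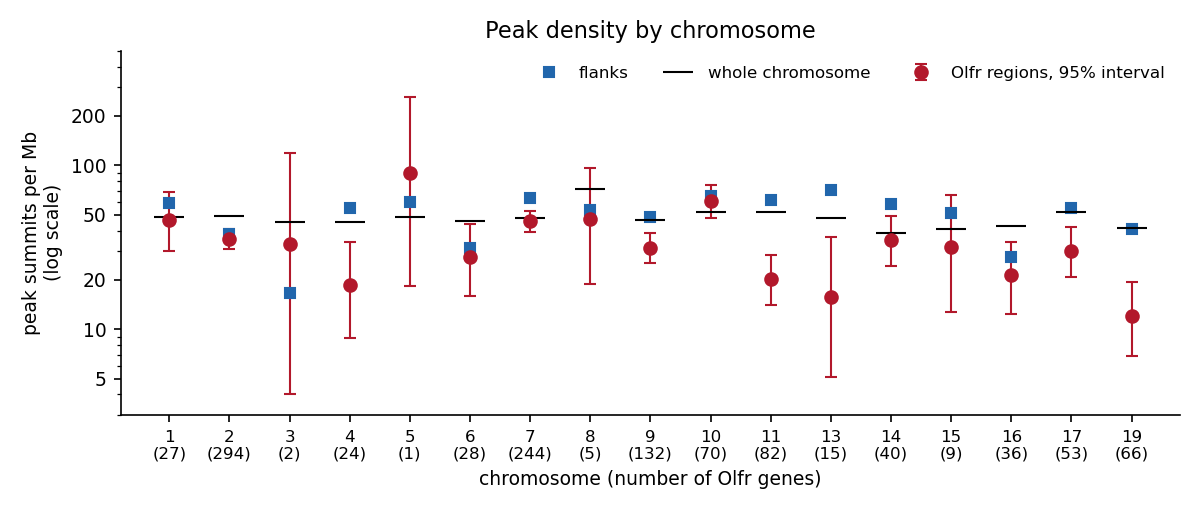
Peak summits per Mb (log scale) in Olfr regions (red, 95% Poisson interval), their flanks (blue) and the whole chromosome (black dash) for the 17 chromosomes with Olfr genes, whose number stands in brackets. Among chromosomes with at least 1 Mb of regions, the values run from 12.0 on chromosome 19 to 60.5 on chromosome 10.

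The 10 region peaks with the most fragments included 3 at the starts of other genes. The strongest, with 96 fragments and a fold enrichment of 15.7, lay 155 bp from the start of Trim68, a ubiquitin ligase gene, on chromosome 7 from 102686936 to 102687623. The others were at Zfp202, a zinc finger gene, with 74 fragments, and at Trim21, a ubiquitin ligase and antibody receptor gene, with 68. Leaving out 1 that also lay in an Olfr intron, the 17 region peaks near other gene starts had a median of 31 fragments, against 6 for the peaks in Olfr coding sequence and introns and 7 for those elsewhere in the regions. The regions held the starts of 44 other protein-coding genes, of which 16, or 36.4% (22.4 to 52.2), had a peak within 500 bp, below the 58.5% of all protein-coding genes.

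A further 5 of these 10 peaks lay in sequence that was repeat-masked throughout its summit window, and 1 was masked over 91.5%. These 6 had between 252 and 16291 other matches in the genome, and the others had none. For 5 of them a match was at least 99% identical over 90% of the window length. For the peak near Olfr725, the best match was 100% identical but shorter. Since reads with several equal matches were placed at 1 of them, the fragment numbers and rank of the repeat peaks are uncertain. The peak in an intron of Olfr56 on chromosome 11 had 90 fragments, and the one 9751 bp from the start of Olfr725 on chromosome 14 had 64 fragments and the highest fold enrichment of the 10, 22.6. The peak 1623 bp from the start of Olfr641, in an intron of Olfr643, had 74 fragments. The remaining one, 9403 bp from Olfr750 and 7371 bp from the ribonuclease gene Rnase12, had 67 fragments, was not masked over most of its length and had no other match.

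The letters of factors known from olfactory neurons and from stem cells were searched on both strands within 100 bases of each summit. TAATTA, the core of the Lhx2 motif, was found in 4.66% of region peaks (3.28 to 6.39), 3.98% of flank peaks and 3.63% of autosomal peaks, and CCCNNGGG, taken for Ebf, in 6.21% (4.61 to 8.15), 12.1% and 8.65%. For AGNNGGCNC, taken for CTCF, the shares were 10.9% (8.76 to 13.3), 16.9% and 14.5%. The octamer ATGCAAAT bound by POU factors such as Pou5f1 occurred in 3.75% of region peaks (2.53 to 5.34) and 2.22% of autosomal peaks, GGGNGTGGC, taken for Klf4, in 1.68% (0.898 to 2.86) and 3.26%, and TCAAGGTCA, taken for Esrrb, in 0.517% (0.141 to 1.32) and 0.732%. Over all peaks, the intervals for Ebf, CTCF and Klf4 lay below the autosomal share and that for the octamer above it, while those for Lhx2 and Esrrb included it. Most of this changed among the 108 region peaks with at least 20 fragments, set beside autosomal peaks of that depth. There, Ebf letters were found in 13.0% (7.27 to 20.8) against 13.8%, CTCF letters in 13.0% (7.27 to 20.8) against 17.7%, the octamer in 2.78% (0.577 to 7.90) against 2.35% and Esrrb letters in 1.85% (0.225 to 6.53) against 0.509%, so that these 4 intervals included the autosomal share. Klf4 letters were found in 0 of the 108, which allows up to 3.36%, against 4.84%, and the Lhx2 letters in 7.41% (3.25 to 14.1) against 2.58%, on 8 peaks. These motifs do not contain one another, and a match is a description of the letters only. The summit windows had a median GC content of 47.8% in the regions and 50.7% in the flanks and on the autosomes. Neither comparison was matched for it.

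At the gene starts themselves the Lhx2 letters were frequent. In the 250 bases before and 50 after the start, TAATTA occurred in 273 of 1128 Olfr genes, or 24.2% (21.7 to 26.8), in 4.12% of the other protein-coding genes and in 5.21% of all. CCCNNGGG occurred in 15.2%, 16.2% and 16.2%. Olfr start windows had a median GC content of 37.3% and the others 56.0%. Among windows with a GC content of 34 to 42%, TAATTA was found in 24.6% of 582 Olfr and 14% of 1595 other starts, and CCCNNGGG in 13.7% and 4.26%. Of the 22 Olfr starts with a peak, 5 held TAATTA and 3 CCCNNGGG, and the interval of the first share, 7.82 to 45.4%, includes that of all Olfr starts.

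Start peaks were also looked up in a list that pools genes of olfactory signalling with regulators of receptor choice and heterochromatin genes. Of these 25 genes, 16 had a start peak, close to the 58.5% of all protein-coding genes. This share describes the pooled list and not the signalling genes alone, which are given separately below. Among the regulators of receptor choice, Lhx2 had 14 fragments at its start peak, Ebf1 62, Ebf2 21, Ebf3 39, Ldb1, the cofactor of Lhx2, 28, Emx2 21 and the demethylase gene Kdm1a 10, while Ebf4 and Atf5 had no summit within 500 bp. Of the heterochromatin genes, Ehmt1 had 32 fragments, Ehmt2 13, Setdb1 21 and Cbx5, which encodes HP1 alpha, 72, while Lbr, the lamin B receptor gene, had its nearest summit at 527 bp.

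Of the signalling genes, Gnal, which encodes the olfactory G protein, had 28 fragments, Adcy3, the adenylyl cyclase downstream of it, 14, Ric8b, the exchange factor of that G protein, 61, Reep1, which aids receptor transport, 25 and Ano2, a chloride channel gene, 6. The channel genes Cnga4 and Cngb1, the receptor chaperone genes Rtp1 and Rtp2, Stoml3 and the olfactory marker gene Omp had no start peak, and their nearest summits lay 1854 to 9705 bp away.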

How the data were processed

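ATAC-seq was performed on 2 samples of DMSO-treated EHMT2-dTAG mESCs with 100 bp paired-end reads. Per the submitters' processing notes and the study's methods, the authors aligned reads to mm10 with STAR 2.7.10, placing reads with several equal matches at 1 of them, removed duplicates with Picard 2.26.0, used SAMtools 1.14 and bedtools 2.30.0, and called peaks on the merged samples with MACS2 2.2.6. The deposited file gives per peak the summit, a score, fold enrichment (a ratio) and −log10 p-value and q-value (at least 1.30). Total reads were not analysed here.

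Fragment numbers and background were recovered as the whole number that gives both the fold enrichment and the p-value, within a relative tolerance of 0.0001 for all 773 region peaks; the lowest background was 1.16 fragments. The steps were tested on simulated data. Genes were those of GENCODE M21, and bases, GC content and repeat masking those of GRCm38. Intervals are exact Poisson, Clopper-Pearson or, for ratios of densities, conditional binomial. No test was made, since both clones are merged in 1 list. Copies were searched with BLAST 2.17.0. Python 3.11.15 with NumPy 2.4.6, pandas 2.3.3, SciPy 1.17.1 and pysam 0.24.0 was used.

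The regions, gene lists and letters were chosen with earlier results of these data known. Named were the 8 regions with the most Olfr genes (ties by width) and the 5 densest and 5 sparsest regions with at least 5 genes. Also named were the 10 region peaks and 10 Olfr starts with the most fragments, and the 25 genes of signalling, receptor choice and heterochromatin. Other genes and regions named were chosen after their values were seen.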

Additional observations from a re-analysis of the deposited data

How the results depend on the processing

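No paired analysis was possible because there is 1 group, whose clones share 1 list of peaks, and leaving out a clone was not possible either. Depth limits the results: 38.2% of region peaks have the minimum of 6 fragments, so a start or region without a peak had fewer fragments than the caller needed and is not shown to be closed. Across 7 results, 65 alternatives were computed, of which 59 had been listed with the design and 6 were added after seeing the data; 33 stayed within the interval of the reported value. The density ratio of regions to flanks stayed below 1 in 13 of 14 alternatives, and the cause of each shift was not tested unless stated.

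The ratio, 0.670 as reported, was 0.404 with peaks of a −log10 q-value of at least 10, 0.816 with gene bodies alone, 0.793 without peaks near other gene starts and 0.519 in sequence that is not repeat-masked. It turned to 1.07 for 10 kb tiles against all other tiles weighted to the same GC content. That alternative also replaces the flanks, was added later and was made with peaks of every depth only. With regions less than 200 kb apart joined into 59 clusters, also added later, it was 0.661.

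With the stricter q-value, 0.516% of region bases lay in peaks, median fold enrichment was 9.24, 0.0887% of Olfr starts, which is Olfr658 alone, had a peak, 75.7% of regions had none, 8.46% of region peaks lay near other gene starts and 58.5% in repeats. With gene bodies alone, these were 1.57% of bases, a median of 3.24, 82.1% of regions without a peak, 0.444% near other starts and 25.3% in repeats. With an extension of 5 kb, 51.6% of regions had no peak, 1.27% of peaks lay near other starts and 42.2% in repeats, and with 50 kb, 2.39% of bases lay in peaks, 1.32% of regions had none and 7.20% of peaks lay near other starts. In regions with at least 5 Olfr genes, the median was 3.60, 3.51% had no peak and 52.0% of peaks lay in repeats. Bases in peaks were 2.21% for joined clusters and 1.81% without chromosome 7.

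The share of Olfr starts with a peak, 1.95% as reported, was 0.887% within 250 bp, 3.90% within 1000 bp, 8.69% within 2000 bp and 6.21% for any transcript start, wider or more windows by construction except the first. Without chromosome 7, which holds 12 of the 22 genes, it was 1.13%. For these alternatives and the stricter q-value, the share over all protein-coding genes was not computed. The 58.5% belongs to 500 bp around the gene start only, so whether the contrast changes cannot be read from these values.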
